A study of Macaca mulatta with 4 samples.

Results

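Ubiquitin-specific proteases are the largest family of deubiquitinases, the enzymes that cut ubiquitin from proteins. Their genes were followed in the amygdala of wild type infant rhesus macaques (Macaca mulatta), in animals that had been anaesthetised with sevoflurane and in controls. The members were the genes whose symbol is USP followed by digits, with an optional trailing L or X, and without USP9Y. Of 35395 gene IDs in the table, 49 matched, and 45 of them had 10 or more reads in at least 2 of the 4 libraries and were kept. The sevoflurane animals, 1 female and 1 male, inhaled about 2.5 to 3% of the gas for 4 hours at each of 3 sessions, near postnatal days 7, 21 and 35, and the amygdala was taken directly after the last session. The controls were also 1 female and 1 male, and the labels do not state what they breathed. The labels do not say that the libraries of a condition are separate animals beyond their sex, so the p-values measure only the spread between these libraries, which within a condition includes any difference between the sexes.

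Ubiquitin is attached to proteins by a chain of E1, E2 and E3 enzymes. Chains of it send proteins to the proteasome, and single ubiquitins or other chains change where a protein goes or what it binds. Ubiquitin-specific proteases remove ubiquitin with a cysteine protease domain that the whole family shares, and outside that domain the members differ widely in size and partners. In neurons, members of the family are known to act on receptors in the membrane, on vesicle traffic, on the proteasome and on chromatin.

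The libraries held 12477047 to 16293371 reads on genes, and between 18371 and 19450 genes had at least 1 read. Levels below are CPM (a gene's reads relative to its library's total, scaled by the trimmed mean of M values, TMM), and fold changes are sevoflurane over control on the log2 scale with their standard error (SE), from edgeR's quasi-likelihood test over 15417 genes. The threshold for a call was an adjusted p (Benjamini-Hochberg, over all these genes) under 0.05. In the tissue check the summed CPM of 7 neuronal markers was 6086 and 6606 in the sevoflurane female and male, against 6135 and 5104 in the control female and male libraries. The control male library stood apart. Its summed CPM over the 6 measured choroid plexus markers was 18050, against 28.4 in the sevoflurane female, 3.70 in the sevoflurane male and 34.5 in the control female library, and its oligodendrocyte marker sum was 6378, against 1474 in the control female and 3031 and 3961 in the sevoflurane libraries. KCNJ13, a defining choroid plexus gene, was at 0 reads in both sevoflurane libraries, and FOLR1 in the sevoflurane male. Microglial markers summed to 144 and 202 CPM in the sevoflurane libraries, against 368 and 324 CPM in the control libraries, and endothelial markers to 167 and 199 CPM, against 267 and 271 CPM. Astrocyte markers summed to 2882 and 3695 CPM in the sevoflurane female and male, against 4007 and 3529 CPM in the control female and male. Within the lists the markers did not move as one. Of the 6 astrocyte markers 1 was called higher (SLC1A2, 4.30 ± 0.41) and 2 lower (GFAP, −2.53 ± 0.43, and ALDH1L1, −1.16 ± 0.355). Of the 7 neuronal markers 1 was called higher (SYT1, 5.24 ± 0.77) and 1 lower (RBFOX3, −1.04 ± 0.32), of the 5 endothelial markers 2 higher (FLT1, 4.97 ± 0.75, and CDH5, 3.13 ± 0.79) and 1 lower (CLDN5, −2.63 ± 0.29), and of the 6 microglial markers 0 higher and 4 lower. The part of these cells in the results below was not tested, and in bulk tissue fewer cells of a type and less RNA per cell cannot be told apart.

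Most members of the family were higher after sevoflurane. Of the 45 kept genes, 29 were called higher, 2 were called lower and 14 were not called, where 21.3% of all tested genes were called higher and 19.4% lower. The 29 make 64.4% of the kept members and the 2 make 4.44%. The median log2 fold change of the kept members was 1.14 (range −1.25 for USP20 to 4.66 for USP37), beside 0.0040 for all tested genes. Both sevoflurane libraries lay above both control libraries for 33 of the 45 genes and below them for 4, where 37.7% of all tested genes lay above and 37.3% below. Scaled by library totals in place of TMM, the median of all tested genes moved to 0.24 and that of the members to 1.38. The members then lay 1.14 above all genes, and with TMM also 1.14. In that scaling 25.3% of all genes were called higher and 14.7% lower, and of the members 29 and 1. Without the sevoflurane male library 17 members were called higher and 0 lower, where 12.2% and 9.32% of all genes were called, and without the control male library 19 and 1, where 15.3% and 13.4% of all genes were called. Without the control female library 22 were called higher and 1 lower, where 18.8% and 17.2% of all genes were called, and without the sevoflurane female 23 and 2, where 15.3% and 14.3% were.

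The read rule touched few genes. USP45 and USP49 had fewer than 10 reads in both control libraries and passed it only through the sevoflurane libraries, so that they had to differ, and among the other 43 kept genes 27 were called higher and 2 lower, with a median of 1.10. Just inside the rule lay USP44, with 30 and 28 reads in the sevoflurane libraries, against 9 and 13 in the control libraries. Just outside it lay USP18, which removes the ubiquitin-like protein ISG15, with 6 and 7 reads in the sevoflurane libraries, against 1 and 3 in the controls. USP26, USP29 and USP50 had 0 reads in every library.

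**Figure D1:**
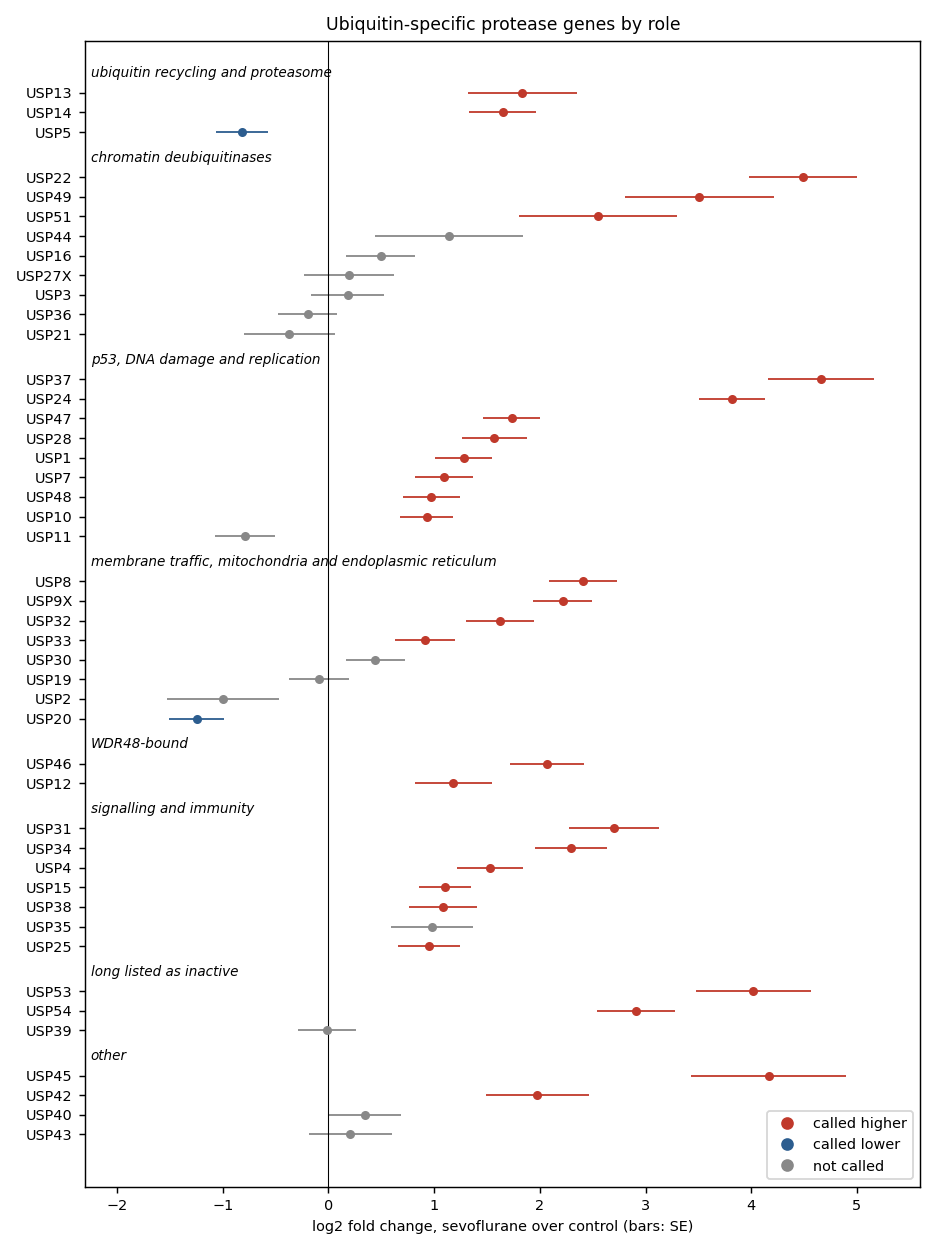
Log2 fold change, sevoflurane over control, of the 45 kept ubiquitin-specific protease genes, grouped by role, with SE bars. Red points are called higher (29), blue lower (2) and grey not called (14), and the largest values are those of USP37 (4.66) and USP22 (4.49).

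The genes that recycle ubiquitin moved in opposite directions. USP14 and USP13 were called higher and USP5 lower, where 21.3% of all tested genes were called higher and 19.4% lower. USP14 sits on the proteasome and trims chains from proteins before they are degraded. It stood at 187 and 304 CPM in the sevoflurane female and male, against 83.8 and 72.7 CPM in the control female and male. The groups did not overlap (log2 fold change 1.65 ± 0.32, edgeR adjusted p = 0.00944). USP5, which takes apart free ubiquitin chains, stood at 182 and 154 CPM in the sevoflurane female and male, against 305 and 286 CPM in the control female and male. Both sevoflurane libraries were lower (log2 fold change −0.82 ± 0.25, edgeR adjusted p = 0.0397). That call was lost with library totals (−0.58, adjusted p = 0.111) and without any 1 of the 4 libraries (−0.93 to −0.70, adjusted p 0.0593 to 0.179). USP13, the closest relative of USP5, stood at 12.3 and 10.4 CPM in the sevoflurane female and male, against 2.22 and 4.17 CPM in the control female and male. Its log2 fold change of 1.83 ± 0.52 was called (adjusted p = 0.0318), but the call was lost when the sevoflurane female (1.71, adjusted p = 0.122), the other sevoflurane library (1.96, 0.0949) or the control female (1.46, 0.0870) was left out.

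Among 9 members that act on chromatin, 3 were called higher (33.3%) and 0 lower, beside 21.3% and 19.4% of all tested genes. The 3 include USP49, which passed the read rule only through the sevoflurane libraries and so had to differ. Their median log2 fold change was 0.50. USP22 removes ubiquitin from histones as part of the SAGA coactivator complex. It stood at 134 and 127 CPM in the sevoflurane female and male, against 8.41 and 3.10 CPM in the control female and male. In read counts these were 2126 and 1851, against 129 and 35. The sevoflurane libraries were close to each other and far above both controls (log2 fold change 4.49 ± 0.51, edgeR adjusted p = 0.00248). With 1 library left out the value ranged from 3.93 (control male removed) to 5.41 (control female removed).

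USP51 and USP27X are relatives of USP22 that can bind the same partner proteins. USP51 had 4.87 and 3.09 CPM in the sevoflurane female and male, against 0.391 and 0.975 CPM in the control female and male. It was called higher (2.55 ± 0.75, adjusted p = 0.0357), but the call was lost when the sevoflurane female (2.19, adjusted p = 0.184), the other sevoflurane library (2.84, 0.0998) or the control female (2.04, 0.106) was left out, and the value was 3.29 without the control male. USP27X had 16.6 and 28.1 CPM in the sevoflurane female and male, against 24.5 and 14.4 CPM in the control female and male, so its groups overlapped (0.20 ± 0.42, adjusted p = 0.735). USP49, a histone H2B deubiquitinase, had 4.74 and 3.16 CPM in the sevoflurane libraries, against 0.326 and 0.355 CPM in the controls. It was called higher (3.51 ± 0.70, adjusted p = 0.0107), a call lost without the sevoflurane female library (3.19, adjusted p = 0.0789). The log2 fold changes of the rest were 1.14 for USP44, its closest relative, 0.50 for USP16 and 0.18 for USP3, both histone H2A deubiquitinases, −0.20 for the nucleolar USP36 and −0.37 for USP21, also a histone H2A deubiquitinase. Of those 5, none was called by edgeR at an adjusted p of 0.230 to 0.696.

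Of 9 members listed here under DNA damage, p53 or replication, 8 were called higher (88.9%) and 0 lower. Of all tested genes 21.3% were called higher and 19.4% lower. The median log2 fold change of the 9 was 1.28. USP37, which stabilises cyclin A in dividing cells, stood at 25.5 and 31.8 CPM in the sevoflurane female and male, against 1.499 and 0.709 CPM in the control female and male. That gap, 404 and 463 reads against 23 and 8, was the largest log2 fold change in the family (4.66 ± 0.50, edgeR adjusted p = 0.00227). With 1 library left out it ranged from 4.22 (control male removed) to 5.34 (control female removed). USP24, a very large member that acts on the DNA damage protein DDB2, stood at 79.2 and 82.7 CPM in the sevoflurane female and male, against 6.39 and 5.05 CPM in the control female and male. It had the smallest adjusted p of the family (3.82 ± 0.31, adjusted p = 0.00147), and leaving out any 1 library gave 3.63 to 4.02.

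USP7, which acts on p53 and on its ligase MDM2, stood at 177 and 213 CPM in the sevoflurane female and male, against 105 and 77.8 CPM in the control female and male. The groups did not overlap (1.09 ± 0.28, adjusted p = 0.0227), but the call was lost without the sevoflurane male (0.96, adjusted p = 0.0844) and without the control male library (0.86, 0.162). USP1, which acts on the Fanconi anaemia protein FANCD2, stood at 59.0 and 55.8 CPM in the sevoflurane female and male, against 24.4 and 22.9 CPM in the control female and male. All 4 libraries sorted by condition (1.28 ± 0.27, adjusted p = 0.0126), and the call was lost without the control male library (1.21, adjusted p = 0.0704). USP47, the closest relative of USP7, had a log2 fold change of 1.73 ± 0.27 and USP28, a regulator of the checkpoint that follows DNA breaks, one of 1.57 ± 0.31, and both kept their calls without any 1 library. USP48 (0.97 ± 0.27) and USP10 (0.93 ± 0.25) were also called. The call of USP48 was lost without the sevoflurane male (0.76), the control female (1.07) or the control male library (0.88), and that of USP10, which acts on p53 in the cytoplasm, without any 1 of the 4 libraries (0.76 to 1.10, adjusted p 0.0557 to 0.211).

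USP11, an X-linked gene in humans whose protein takes part in DNA repair, went the other way. It stood at 422 and 299 CPM in the sevoflurane female and male, against 670.4 and 574 CPM in the control female and male. Both sevoflurane libraries were below both controls, yet its log2 fold change of −0.79 ± 0.29 was not called by edgeR (adjusted p = 0.0676). DESeq2 called it (−0.78, adjusted p = 0.0356), as did edgeR without a filter on low counts (adjusted p = 0.0492) and with sex as a second term (adjusted p = 0.0305).

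Members listed here under membrane traffic, mitochondria and the endoplasmic reticulum were mixed. Of 8, 4 were called higher (50%) and 1 lower (12.5%), beside 21.3% and 19.4% of all tested genes. Their median log2 fold change was 0.68. The 8 include USP2, described below by its action on cyclin D1 and clock proteins. USP8, which acts on receptors at endosomes together with STAM proteins, stood at 71.1 and 89.0 CPM in the sevoflurane female and male, against 17.7 and 12.4 CPM in the control female and male (2.41 ± 0.32, edgeR adjusted p = 0.00344). USP9X, mutated in X-linked developmental disorders of the human brain, stood at 203 and 213 CPM in the sevoflurane female and male, against 51.8 and 37.8 CPM in the control female and male (2.21 ± 0.28, adjusted p = 0.00297). Both genes were above controls in either sex and kept their calls without any 1 library. USP9X has a near-identical copy on the Y chromosome, and how the authors' counting shared reads between the copies is not stated in the labels, so its level in males is uncertain. USP32, a Golgi-associated member, had a log2 fold change of 1.62 ± 0.32. USP33 had 0.91 ± 0.28 (adjusted p = 0.0415), a call lost without the sevoflurane male (0.65), the control female (1.05) or the control male library (0.78).

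USP20 was the member with the largest fall. This relative of USP33, which like it acts on internalised adrenergic receptors, stood at 53.4 and 44.7 CPM in the sevoflurane female and male, against 109 and 124 CPM in the control female and male. All sevoflurane values were below all control values, with a value of −1.25 ± 0.26 on the log2 scale (edgeR adjusted p = 0.0117), and the call was lost without the sevoflurane male library (−1.12, adjusted p = 0.0552). USP2, which acts on cyclin D1 and clock proteins, stood at 42.0 and 13.5 CPM in the sevoflurane female and male, against 61.3 and 49.6 CPM in the control female and male. The sevoflurane male was the lowest by far, and with that spread the log2 fold change of −0.997 ± 0.53 was not called (adjusted p = 0.172). It was −1.20 with sex as a second term and was then called (adjusted p = 0.0117), as it was without a filter on low counts (adjusted p = 0.0249) and without the sevoflurane female library (−2.03, adjusted p = 0.0177). USP30, the member of the outer mitochondrial membrane that opposes the clearance of mitochondria, stood at 37.6 and 37.7 CPM in the sevoflurane female and male, against 27.9 and 27.4 CPM in the control female and male. The groups did not overlap, but the log2 fold change of 0.44 ± 0.28 was not called (adjusted p = 0.235). USP19, anchored in the endoplasmic reticulum, was at −0.09 ± 0.28 (adjusted p = 0.816).

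USP12 and USP46 are near twins that work only when bound to the WD-repeat protein WDR48, and USP46 in rodents and worms is known for its action on inhibitory and glutamate signalling. USP46 stood at 93.8 and 169 CPM in the sevoflurane female and male, against 32.6 and 30.1 CPM in the control female and male. Sevoflurane libraries were higher in both sexes and spread more than the controls (2.07 ± 0.35, edgeR adjusted p = 0.00639). USP12 stood at 239 and 265 CPM in the sevoflurane female and male, against 147 and 74.6 CPM in the control female and male. It was called higher (1.18 ± 0.37, adjusted p = 0.0424), but the value depended on the controls. It was 1.78 without the control female, and the call was lost without the control male (0.74, adjusted p = 0.221) and without either sevoflurane library (1.26, 0.0820 without the female and 1.11, 0.130 without the male).

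Of 7 members tied to signalling and immunity, 6 were called higher (85.7%) and 0 lower, beside 21.3% and 19.4% of all tested genes. Their median log2 fold change was 1.10. USP31, a regulator of NF-kappaB signalling, stood at 23.1 and 28.4 CPM in the sevoflurane female and male, against 4.95 and 2.93 CPM in the control female and male (2.70 ± 0.43, edgeR adjusted p = 0.00518). USP34, a very large member that stabilises axin in Wnt signalling, stood at 226 and 268 CPM in the sevoflurane female and male, against 63.6 and 37.0 CPM in the control female and male (2.30 ± 0.34, adjusted p = 0.00437). Both genes kept their calls without any 1 library. The relatives USP4 and USP15, regulators of TGF-beta receptor signalling, had 1.53 ± 0.31 and 1.10 ± 0.25. The call of USP4 was lost without the sevoflurane male library (1.23, adjusted p = 0.0513), and that of USP15 without the sevoflurane male (1.005, adjusted p = 0.0574), the control female (1.20, 0.0516) or the control male (1.005, 0.107). USP38 (1.08 ± 0.32) and USP25 (0.95 ± 0.29), both regulators of innate immune signalling, were called as well. The call of USP38 was lost without either male library (0.84 without that of sevoflurane, 0.86 without that of control), and that of USP25 without the sevoflurane male (0.65), the control female (0.96) or the control male (0.95). USP35, the relative of USP38, had 0.98 ± 0.39 and was not called (adjusted p = 0.0861), though it was without a filter on low counts (adjusted p = 0.0475) and with sex as a second term (adjusted p = 0.0428).

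Members long listed as inactive, because parts of the catalytic site are altered, differed among themselves. USP53, a protein of cell junctions, stood at 12.1 and 21.5 CPM in the sevoflurane female and male, against 0.912 and 1.15 CPM in the control female and male (4.02 ± 0.54, edgeR adjusted p = 0.00354). USP54, its closest relative, stood at 38.4 and 45.2 CPM in the sevoflurane female and male, against 6.65 and 4.43 CPM in the control female and male (2.91 ± 0.37, adjusted p = 0.00297). Both genes were higher in either sex and kept their calls without any 1 library. USP39, a factor of the spliceosome, stood at 48.3 and 49.5 CPM in the sevoflurane female and male, between the 56.4 CPM of the control female and the 42.2 CPM of the control male, with a log2 fold change of −0.01 ± 0.28 (adjusted p = 0.975).

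Of the 4 remaining members, USP45 and USP42 were called higher (50%) and 0 lower, beside 21.3% and 19.4% of all tested genes. USP45 and USP42 have known ties to DNA repair or p53 but were not in the list of 9 above. USP45, a DNA repair enzyme related to USP16, had 80 and 93 reads in the sevoflurane libraries, against 3 and 5 in the controls (5.06 and 6.38 CPM, against 0.196 and 0.443 CPM). Its log2 fold change was 4.16 ± 0.73 (adjusted p = 0.00711). With 1 library left out it ranged from 3.69 (control female removed) to 4.78 (control male removed). USP42, which acts on p53, had 1.98 ± 0.49 (adjusted p = 0.0211), a call lost without either sevoflurane library (1.83 without the female, 2.12 without the male) or the control male (1.52). Its value was 2.62 without the control female. USP40 (0.35 ± 0.34) and USP43 (0.21 ± 0.39) were not called (adjusted p = 0.440 and 0.693).

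**Figure D2:**
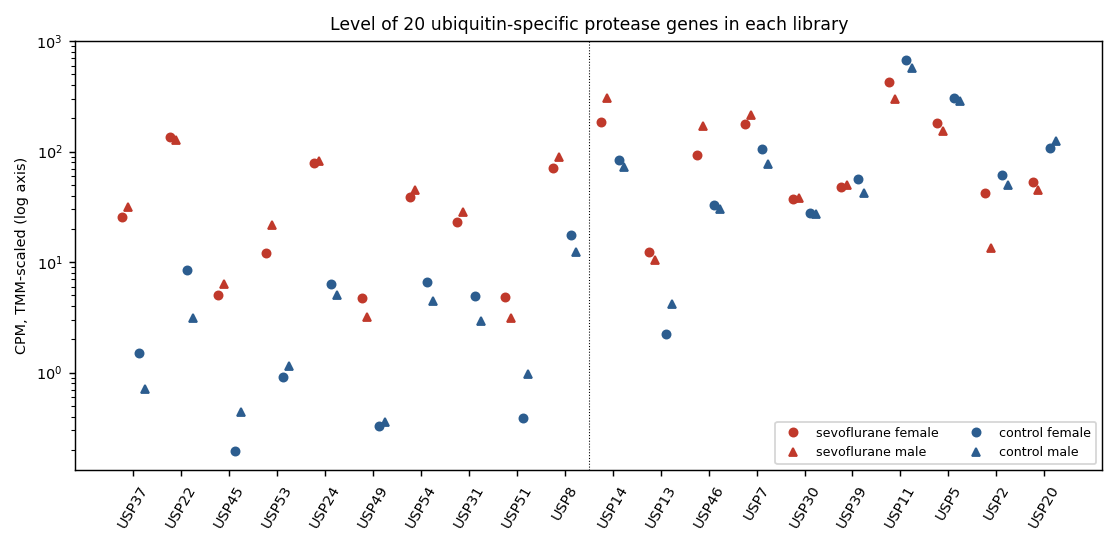
CPM on a log axis of 20 members in each library: the 10 called higher with the largest fold changes on the left of the dotted line, and 10 further members on its right. Red symbols are sevoflurane and blue symbols control libraries, circles females and triangles males. The 10 genes on the left show a gap between the conditions, which USP45 and USP49 among them had to show. USP39 overlaps, and USP11, USP5, USP2 and USP20 are lower after sevoflurane.

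The make-up of the family's reads was more even after sevoflurane. The kept members together held 0.416% and 0.444% of reads in the sevoflurane female and male, against 0.253% and 0.206% in the control female and male libraries. Their summed CPM was 3970 ± 257 after sevoflurane and 2480 ± 294 in controls (SD, n = 2 each), a ratio of 1.60. An exact two-sided permutation test gave p = 0.333, the smallest value that 2 libraries against 2 allow. USP11 alone took 11.1% (95% Wilson interval 10.9 to 11.4) and 7.21% (7.00 to 7.42) of the members' reads in the sevoflurane female and male, against 24.9% (24.5 to 25.4) and 25.2% (24.7 to 25.8) in the control female and male. USP5 took 4.80% and 3.70% in the sevoflurane female and male, against 11.3% and 12.6% in the control female and male. USP22 took 3.55% and 3.06%, against 0.313% and 0.137%. These intervals cover counting error only. The 3 genes with most reads held 23.4% and 21% in the sevoflurane female and male, against 41.8% and 43.3% in the control female and male. Without USP11 and USP5 the other 43 members summed to 3184 and 3699 CPM in the sevoflurane female and male, against 1713 and 1413 CPM in the control female and male. Gene lengths were not used here, so reads are not compared as levels between genes.

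**Figure D3:**
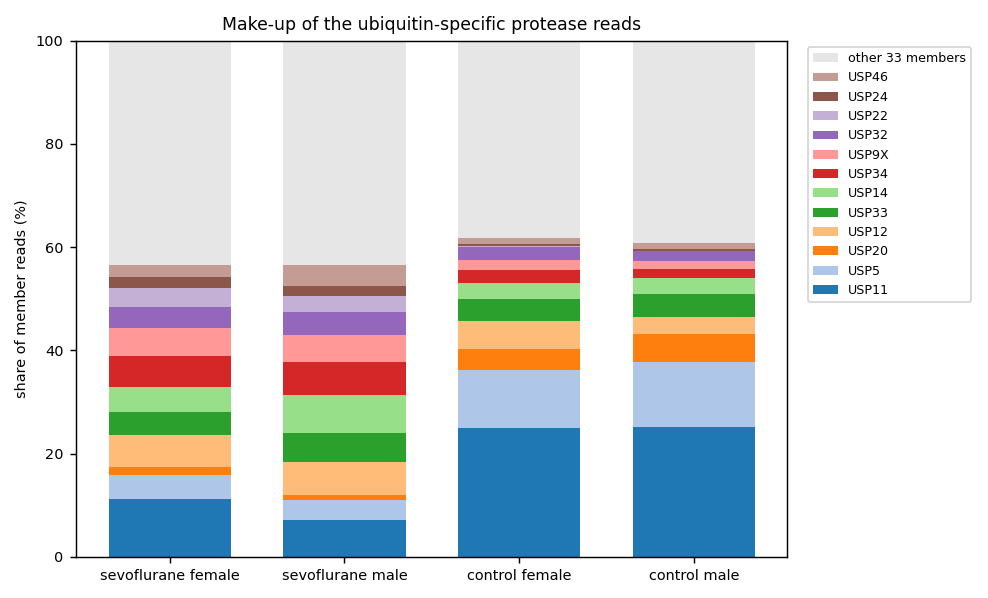
Share of the members' reads, in percent, taken by 12 genes and by the other 33 members in each library. USP11 and USP5 fill a smaller part of the bar in the sevoflurane libraries (11.1% and 7.21% for USP11) than in the control libraries (24.9% and 25.2%).

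Related genes were set against each other inside each library, where the ratio of their reads does not depend on the scaling. Of 14 such pairs, chosen with the values known, 12 had ratios that did not overlap between conditions, and in 13 the ratio moved the same way in females and males. The pairs with USP45 or USP49, which had to differ, are among the 12, and of the 12 pairs without them 10 did not overlap. With 2 libraries against 2, no pair can reach an exact permutation p below 0.333. Among all tested genes taken singly, both sevoflurane libraries lay above both controls for 37.7% and below them for 37.3%. In 13152 of 15417 genes the change had the same sign in females and males. How often the ratios of other gene pairs would do so was not tested. The USP22/USP27X ratio moved most, with log2 values of 3.02 and 2.18 in the sevoflurane female and male, against −1.54 and −2.19 in the control female and male. USP22 thus had more reads than USP27X in both sevoflurane libraries and fewer in both controls. For USP45/USP16 the log2 ratios were −3.49 and −3.91 in the sevoflurane female and male, against −7.80 and −6.90 in the control female and male.

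In 2 pairs the partners were called in opposite directions. The log2 ratio of USP13 to USP5 was −3.88 and −3.89 in the sevoflurane female and male, against −7.08 and −6.08 in the control female and male. That of USP33 to USP20 was 1.64 and 2.39 in the sevoflurane female and male, against 0.08 and −0.33 in the control female and male. USP4 and USP15 shifted in the same sense against their relative USP11, by 2.31 and 1.90 on average. In 3 pairs both partners were called higher. USP46 gained 0.74 on USP12 with overlapping groups, USP28 gained 0.64 on USP25, and USP53 gained 0.99 on USP54. The USP38/USP35 ratio fell in females (−0.48) and rose in males (0.77), so that its groups overlapped.

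**Figure D4:**
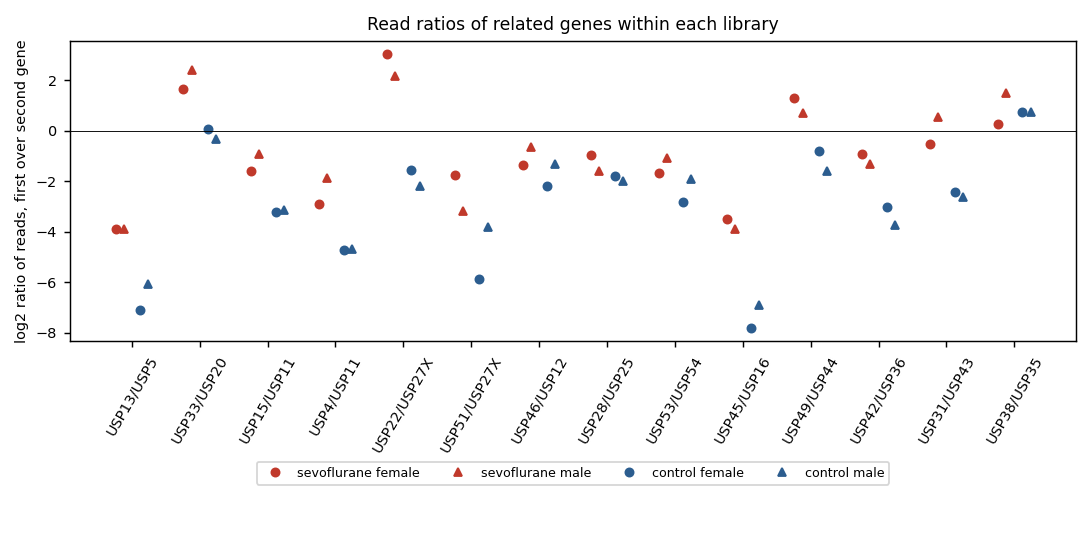
Log2 ratio of reads of the first over the second gene of 14 related pairs in each library. Red symbols are sevoflurane and blue symbols control libraries, circles females and triangles males. All pairs but USP46/USP12 and USP38/USP35 show both sevoflurane ratios above both control ratios, the widest gap being that of USP22/USP27X.

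The members' median was above 0 in either sex. Fold changes in females and in males, which share no library, had the same sign for 39 of the 45 members, a share near that of all tested genes (13152 of 15417), and their median was 1.12 in females and 1.29 in males. Across the members the female and male values correlated at r = 0.887 (Spearman's rho = 0.905), beside 0.859 and 0.851 across all 15417 tested genes, as a description of genes within these 4 libraries. USP51 and USP13 had larger values in females (3.24 and 2.40) than in males (1.53 and 1.29), and USP2 a larger fall in males (−1.86) than in females (−0.54). With 1 library per sex and condition the difference between the sexes in the response was not tested.

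Between males and females, with condition in the fit, edgeR called 0 of the 45 members, where 1.84% of all tested genes were called. At an unadjusted edgeR p under 0.05 there were 2 members, USP2 (male over female −0.96 ± 0.36) and USP21 (−0.72 ± 0.33), named after their values were seen (edgeR adjusted p = 0.275 and 0.443). Of all tested genes, 1673 of 15417 passed that unadjusted threshold, a larger share than among the members. Of the members that are X-linked in humans, USP9X was at −0.19 ± 0.29, USP11 at −0.36 ± 0.29, USP51 at 0.14 ± 0.75 and USP27X at 0.0012 ± 0.43, with edgeR adjusted p of 0.789 or more.

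**Figure D5:**
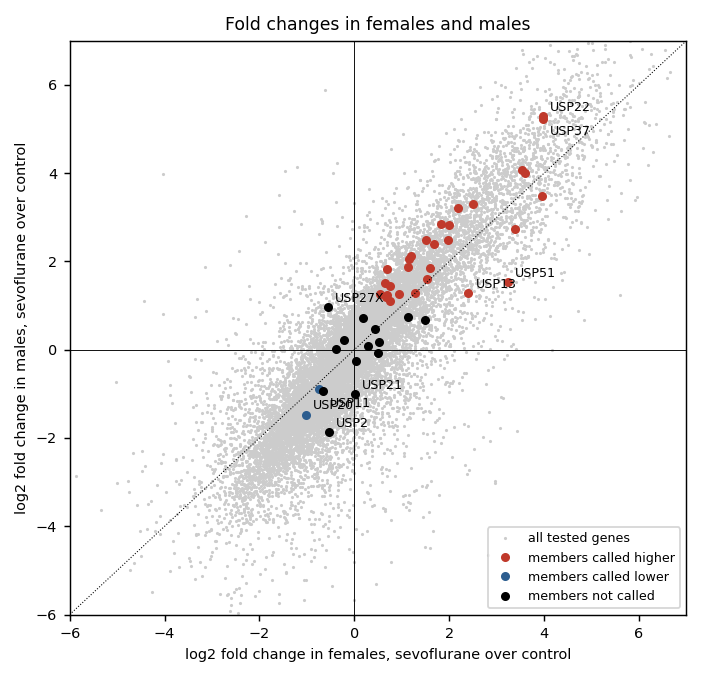
Log2 fold change, sevoflurane over control, in females (horizontal axis) and males (vertical axis), for the 45 members on top of all 15417 tested genes in grey, of which 48 lie outside the axes. Members called higher (red) lie in the upper right, USP20 and USP5 (blue) in the lower left, and most members not called (black) nearer the origin, with USP2 and USP11 below it and USP44 and USP35 to its upper right (1.49 and 1.12 in females, 0.67 and 0.74 in males).

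The median fold change was above 0 among members with few and with many reads. The 22 members with the lower mean CPM had a median log2 fold change of 1.43 with 13 called higher and 0 lower. USP45 and USP49, which passed the read rule only through the sevoflurane libraries and had to differ, are among the 13. The 23 members with the higher mean CPM had a median of 1.09 with 16 called higher and 2 lower. Across all tested genes the medians of the lower and upper parts were 0.17 and −0.14. In the lower part of all genes 1663 of 7708 were called higher and 872 lower. In the upper part 1619 of 7709 were called higher and 2124 lower, so lower calls were also more frequent there among all genes. The rank correlation of fold change with mean CPM was −0.32 over the 45 members and −0.11 over all tested genes, and both quantities come from the same reads.

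Deubiquitinases of other families were also called higher more often than lower. Of 33 tested, 14 were called higher (42.4%) and 3 lower (9.09%), beside 21.3% and 19.4% of all tested genes. Their median log2 fold change was 0.70. It was 0.58 without the sevoflurane male library and 0.93 without the sevoflurane female, and lay between these without either control library. YOD1, a deubiquitinase of the OTU family, had 107 and 52 reads in the sevoflurane female and male, against 0 and 2 in the control female and male, a ratio of 69.6 (95% counting interval 19.0 to 580.0). YOD1 and OTUD3 had fewer than 10 reads in both control libraries and could be tested only through the sevoflurane libraries, so that they had to differ. Among the other 31 genes 12 were called higher and 3 lower, with a median of 0.62. MYSM1, a histone H2A deubiquitinase of the metalloprotease type, averaged 31.9 ± 6.96 CPM after sevoflurane and 1.35 ± 0.345 CPM in controls (SD, n = 2 each; log2 fold change 4.56 ± 0.44 SE). OTUD3 rose by 3.81 ± 0.58. The 3 called lower were JOSD2 of the Josephin family (−3.04 ± 0.43), OTUB1 (−1.48 ± 0.26) and OTUD5 (−0.80 ± 0.24).

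The enzymes that activate and carry ubiquitin and its relatives were called about as often as all tested genes. Of 34 tested E1 and E2 genes, 9 were called higher (26.5%) and 7 lower (20.6%), beside 21.3% and 19.4% of all tested genes, with a median log2 fold change of −0.10. The counts changed with the scaling and the libraries, with 12 higher, 4 lower and a median of 0.13 by library totals, a median of 0.12 without the sevoflurane female, 2 lower without the sevoflurane male, 4 lower without the control female, and 5 higher and 3 lower without the control male. UBE2Z (3.34 ± 0.37), the giant E2 and E3 enzyme BIRC6 (2.94 ± 0.34) and the E1 enzyme UBA6 (2.33 ± 0.38) were highest, and UBE2S (−2.09 ± 0.30), CDC34 (−2.05 ± 0.26) and UBE2M (−1.16 ± 0.32), which carries the ubiquitin-like NEDD8, lowest among those called.

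Of 11 tested genes of proteins that bind ubiquitin-specific proteases, 4 were called higher (36.4%) and 1 lower (9.09%). Of all tested genes 21.3% were called higher and 19.4% lower. The other 6 of the 11 were not called, as were 9139 of all 15417 tested genes. The median log2 fold change of the 11 was 0.72. Library totals gave 7 and 0, and 3 or fewer were called higher without any 1 library (1 without the sevoflurane male or either control library), and 0 lower except for 1 without the control female. ATXN7, which anchors USP22 in the SAGA complex, was at 3.39 ± 0.57 and rose beside USP22, whereas ATXN7L3, which activates it, was at 0.38 ± 0.27 and not called, and ENY2, of the same module, was at −0.99 ± 0.29 and called lower. STAM2 (1.15 ± 0.35), a partner of USP8, and G3BP1 (1.11 ± 0.28), a partner of USP10, were called higher. WDR48 and WDR20, partners of USP12 and USP46, were at 0.59 ± 0.25 and 0.72 ± 0.31 and were not called (edgeR adjusted p = 0.103 and 0.110).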

How the data were processed

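The authors deposited raw read counts per Ensembl macaque gene, 1 column per library, all of which were used. Reads were aligned with HISAT2, per the submitters' processing notes. Its version, the counting program, the strand setting, the genome build and the annotation were not given in the labels or headers. Libraries came from total RNA by the usual Illumina procedure, per the labels' protocols. Symbols came from a table that named 24173 of 35395 IDs.

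Genes were filtered with filterByExpr (minimum count 10, by group) in edgeR 4.0.16 (R 4.3.3), leaving 15417. Counts were scaled by TMM and tested with the quasi-likelihood F-test, condition being the single term (residual degrees of freedom 2). The sexes were compared in a fit that added sex (residual degrees of freedom 1). SEs were derived from the F statistic. Fold changes within a sex used log2 CPM with a prior count of 2, and pair ratios added 0.5 reads. P-values were adjusted over all tested genes. On simulated counts, with 200 genes changed and 15127 tested, the condition test recovered 58.2% of 4-fold and 3.03% of 2-fold changes. There the spread of each gene followed the trend over all genes. In the data far more genes, 6278, were called, so these shares do not give the recovery in the data. DESeq2 1.42.0, other scalings and filters, sex as a term and leaving out each library were the alternatives. Values of every library are given for up to 10 rising and 10 falling called members of largest change (2 were called lower) and for a fixed set of further members. From related lists up to 3 called genes per direction are named, and other genes were named after their values were seen. A further list of the ubiquitin system is not reported here. The members, roles, pairs and lists were chosen with earlier results of these data known.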

Additional observations from a re-analysis of the deposited data

Results flagged for a closer look

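For 6 members the sevoflurane over control log2 fold change had opposite signs in the female and the male libraries, none of them called by edgeR. USP27X was at −0.56 in females and 0.96 in males, the widest such gap. USP21 was at 0.016 in females and −1.002 in males. USP3 was at 0.49 in females and −0.070 in males, and USP36 at −0.40 in females and 0.022 in males. USP39 was at −0.22 in females and 0.23 in males, and USP19 at 0.030 in females and −0.25 in males. With 1 library per sex and condition these differences were not tested.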

How the results depend on the processing

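Of the 29 members called higher, 15 were called in every alternative in which they were fitted: USP37, USP22, USP45, USP53, USP24, USP54, USP31, USP8, USP34, USP9X, USP46, USP47, USP14, USP32 and USP28. USP45, among the 15, passed the read rule only through the sevoflurane libraries and so had to differ. USP37, USP45, USP49, USP51 and USP44 were not fitted where 10 reads were asked of every library. Leaving out 1 library gave 3469 to 5800 calls over all genes (6278 with all 4), 17 to 23 members higher, 0 to 2 lower and a median of the members of 1.005 to 1.35. Library totals gave a median of 1.38, where that of all genes also shifted. The count of members lower was 1 with library totals, and 4 without a filter on low counts or with sex as a second term. The other counts, of higher members and of all genes, stayed within 1.5 times under other scalings, filters and DESeq2. Sign changes were limited to members near 0 that were not called. With library totals USP19 was at 0.14, USP36 at 0.033 and USP39 at 0.21. USP39 was at 0.0017 without a filter and with sex as a term, and at 0.058 where 10 reads were asked of every library. With 1 library left out the ranges were −0.21 to 0.54 for USP43, −0.23 to 0.66 for USP27X, −0.071 to 0.49 for USP3, −0.24 to 0.23 for USP39, −0.36 to 0.14 for USP19 and −1.11 to 0.12 for USP21. The libraries lost 7 to 14 calls of members when left out, the most without the sevoflurane male. The labels give no replicate numbers, so libraries were matched across conditions only by sex.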
